A study of Mus musculus with 27 samples.

Results

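Inhibitory checkpoint receptors are surface proteins that restrain T cells. The 10 described here, Ctla4, Pdcd1, Lag3, Havcr2, Tigit, Btla, Cd160, Cd200, Cd5 and Cd244, were chosen by name as a family and found in the count table by Ensembl gene ID, as 10 of its 26802 rows. The members, and the lists of other genes used below, were chosen with earlier results of these data known. Their counts beside the share of all genes are therefore descriptions. Cd244 is listed under the symbol Cd244a. All 10 are annotated as protein-coding, and 8 passed the filter for low counts. Havcr2 and Cd244 did not pass and are given as counts.

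Checkpoint receptors act against the signals that T cells receive through the antigen receptor and CD28. CTLA-4, encoded by Ctla4, competes with CD28 for CD80 and CD86. PD-1, encoded by Pdcd1, recruits the phosphatase SHP-2 when it binds PD-L1 or PD-L2. Several of these receptors are induced by activation itself, and CTLA-4 is also abundant in regulatory T cells, which suppress other T cells.

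RNA was sequenced in 27 libraries, 3 for each of 9 groups, of mouse CD4+ or CD8+ T cells taken from pooled lymph node and spleen by magnetic negative sorting. The genotypes were B6-wt (WT), a CD4-cre line with floxed Rptor (Raptor KO), and a CD4-cre line with floxed Rictor (Rictor KO). Raptor belongs to the growth-promoting kinase complex mTORC1, while Rictor belongs to mTORC2. The Cre is driven from Cd4, so deletion is expected from the stage at which developing T cells express that gene, in both subsets. The culture lasted 48 h. It held either the survival cytokine IL-7 (5 ng/ml) or plate-bound anti-CD3 with anti-CD28 (10 µg/ml), called stimulated here, and live cells were sorted at its end. WT and Raptor KO cells were present in both subsets and both cultures, and Rictor KO cells as stimulated CD8+ cells. The labels do not give the animals' age or say whether the libraries of a group came from separate animals, so p-values measure the spread between these samples, which may be technical.

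Libraries held 8640699 to 16817347 counts, of which the ribosomal RNA precursor Rn45s took 81.1% to 88.4%. The remainder was 1522199 to 2515583 counts. Levels are given in counts per 1000000 (CPM) of the genes that passed the filter, after TMM scaling between libraries. The resulting divisors were 1121926 to 3767519 counts. Protein-coding genes made up 18.7% to 63.6% of that remainder, with higher shares after stimulation. Counts over the whole Rptor and Rictor genes do not isolate the floxed exons, and neither gene differed from WT past the threshold in its knockout (log2 differences of -0.20 to -0.34, adjusted p of 0.427 to 0.961), so the labels alone give the genotypes. A list of 9 T cell markers summed to 510 to 1300 CPM, and 8 B cell markers to at most 18.1 CPM.

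Stretches of promoter are shown for 3 members whose later results contrast: Ctla4 and Cd5, which were both lower in stimulated Raptor KO CD4+ cells, and Cd200, which rose with stimulation and did not pass the test in any comparison of a knockout with WT. RefSeq (GRCm38.p6) gave a promoter for 9 of the 10 members, as windows of 300 bases that hold 250 bases before and 50 after the gene start. The Ctla4 window is chr1:60908775-60909074 on the plus strand, inside the gene model of GENCODE, which runs from 60887000 to 60915832 on chromosome 1. In GRCm38, Cd5 lies at chr19:10717116-10739002 (minus strand), Lag3 at chr6:124904361-124911705 (minus), Btla at chr16:45224315-45257670 (plus) and Cd200 at chr16:45382135-45409053 (minus). The Cd5 window is chr19:10738925-10739224 on the minus strand, and the Cd200 window is chr16:45409004-45409303 on the minus strand. Capitals mark GGAAA or its reverse strand form TTTCC, the core of sites of the activation factor NFAT. TGANTCA, the site of AP-1, was searched on both strands too and would also be in capitals.
Ctla4: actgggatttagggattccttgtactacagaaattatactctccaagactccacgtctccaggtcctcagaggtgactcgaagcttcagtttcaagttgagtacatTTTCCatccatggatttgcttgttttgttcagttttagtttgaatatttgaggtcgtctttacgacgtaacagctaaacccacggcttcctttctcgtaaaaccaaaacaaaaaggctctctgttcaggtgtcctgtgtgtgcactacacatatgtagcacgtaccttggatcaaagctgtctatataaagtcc
Cd5: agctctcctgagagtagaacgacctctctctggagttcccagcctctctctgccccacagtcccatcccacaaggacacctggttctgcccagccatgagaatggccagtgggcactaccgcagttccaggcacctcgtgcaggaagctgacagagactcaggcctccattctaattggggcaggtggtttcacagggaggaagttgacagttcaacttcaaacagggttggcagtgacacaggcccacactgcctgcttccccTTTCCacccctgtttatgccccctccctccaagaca
Cd200: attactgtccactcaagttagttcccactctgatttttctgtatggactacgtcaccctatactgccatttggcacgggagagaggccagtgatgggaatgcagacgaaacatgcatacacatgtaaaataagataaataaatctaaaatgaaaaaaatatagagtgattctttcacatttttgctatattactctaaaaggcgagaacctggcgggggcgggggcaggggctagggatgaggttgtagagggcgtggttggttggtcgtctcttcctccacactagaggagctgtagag
GGAAA was found 1 time in the Ctla4 window, 1 time in the Cd5 window and 0 times in the Cd200 window. Over all 32851 promoters of this length, 61.3% held it. TGANTCA was in none of these 3 windows and in 7.81% of all promoters. Among the other members Pdcd1 held GGAAA 2 times, Tigit 2 times and Btla 0 times. These are matches of letters, which say nothing of binding.

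Stimulation raised most tested members. In WT CD4+ cells 7 of the 8 tested members rose, against 32.4% of all 10493 genes tested. In WT CD8+ cells 8 of 8 rose, against 32.0%. In Raptor KO cells 7 of 8 rose in the CD4+ subset, against 27.9%, and 8 of 8 in the CD8+ subset, against 29.5%. No member fell. Called genes had an adjusted p under 0.05 in edgeR's quasi-likelihood test with Benjamini-Hochberg adjustment over all 10493 genes. On the IL-7 libraries alone 4 of the 8, Ctla4, Btla, Cd200 and Cd5, pass the filter for low counts, and each of these 4 rose in all 4 settings. The other 4, Pdcd1, Lag3, Tigit and Cd160, passed it only with the stimulated libraries, where they are high. Their part of these counts, and their stimulation tests below, are thus a description and no support. In bulk samples, a change in the share of cells that express a gene and a change per cell cannot be told apart.

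**Figure D1:**
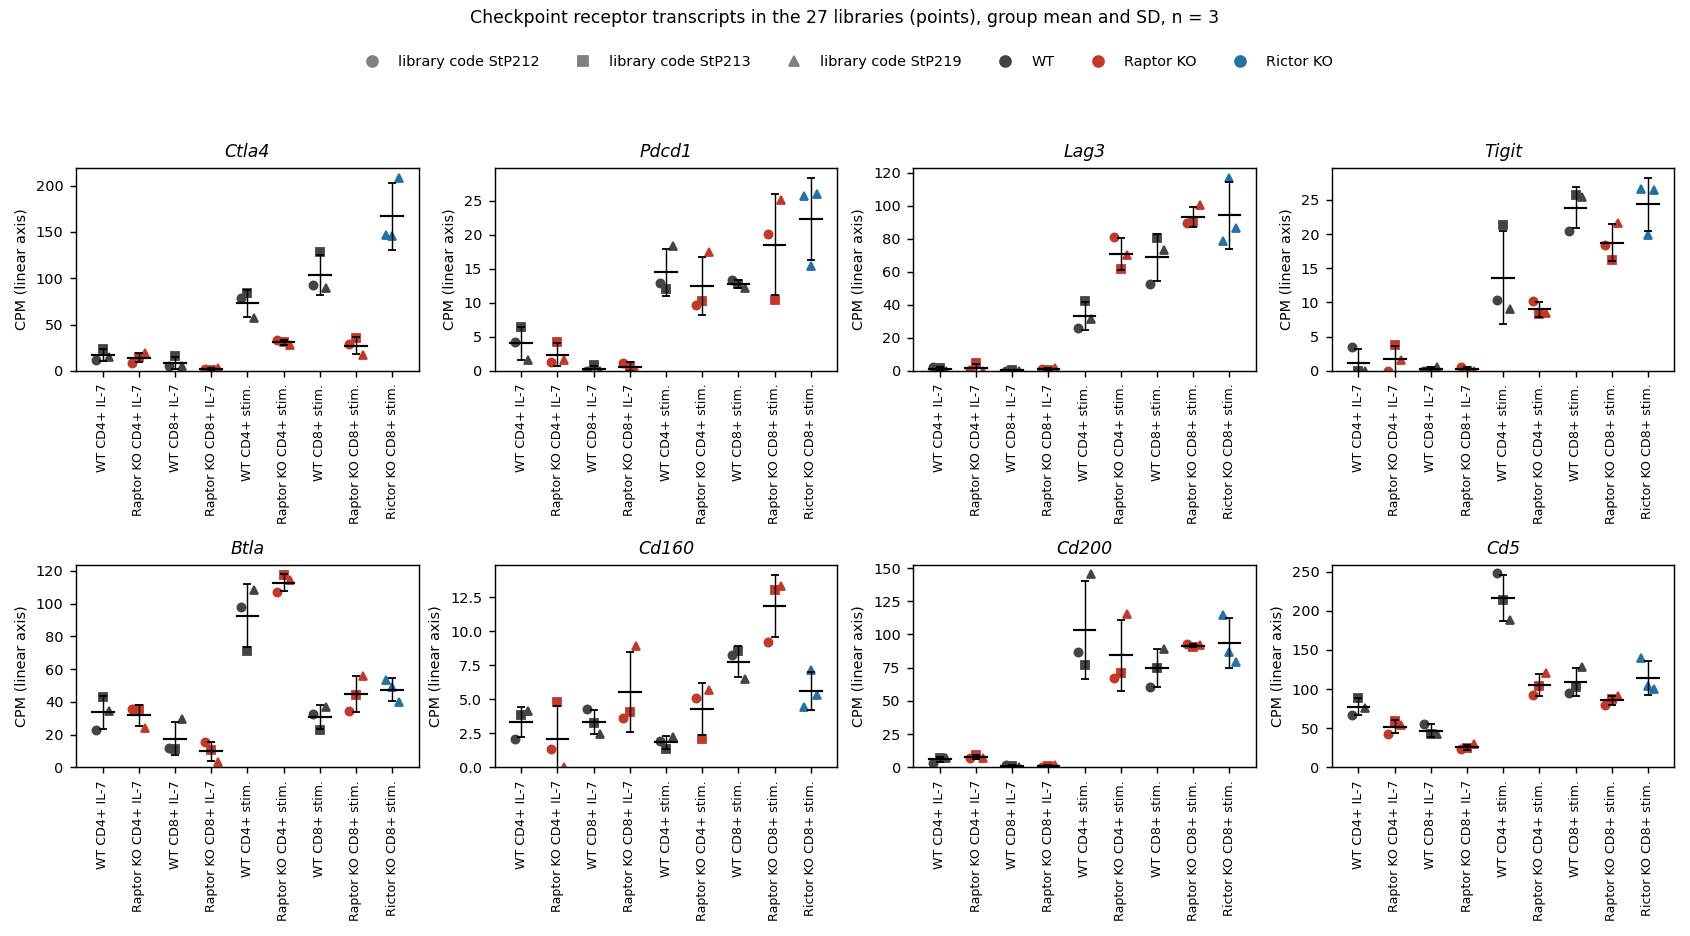
Counts per 1000000 (CPM, linear axes from 0) of the 8 tested members in 27 libraries, 9 groups of 3. Points are libraries, with shape for the library code and colour for the genotype, and bars give the mean and SD. Ctla4 in stimulated cells is low in both Raptor KO groups (17.3 to 35.6 CPM) and highest in Rictor KO CD8+ cells (145.2 to 208.5 CPM).

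Lag3 encodes a receptor that binds MHC class II. In WT CD8+ cells it gave 0, 0.821 and 0 CPM with IL-7 and 52.8, 80.3 and 73.0 CPM after stimulation in libraries 1, 2 and 3. The groups did not overlap. Only 1 Lag3 count was found over the 3 IL-7 libraries against 542 after stimulation, a ratio of 291 with a 95% counting interval of 52.0 to 11500. In WT CD4+ cells Lag3 gave 2.09, 1.94 and 0 CPM with IL-7 and 26.0, 42.3 and 31.1 CPM after stimulation, a log2 change of 4.70 ± 0.50 (SE, adjusted p = 6.13e-09). Lag3 was thus at 0 to 2.09 CPM in these IL-7 libraries and present in every stimulated one.

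Cd200, which encodes a ligand-like glycoprotein that signals through the receptor CD200R, was also low with IL-7. In WT CD8+ cells it gave 1.42, 0.821 and 0 CPM with IL-7 and 60.7, 74.9 and 89.1 CPM after stimulation, from 3 and 609 counts, a ratio of 109 (95% counting interval 37.1 to 530). In WT CD4+ cells it gave 3.48, 7.10 and 7.19 CPM with IL-7 and 86.9, 77.1 and 145.3 CPM after stimulation. The CD4+ log2 change was 4.10 ± 0.32 (adjusted p = 2.52e-11), again without overlap.

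Tigit and Pdcd1 reached lower levels. Tigit encodes a receptor for the poliovirus receptor PVR, which it shares with the activating CD226. Its stimulated WT CD8+ libraries held 20.5, 25.7 and 25.5 CPM, from 190 counts against 1 count with IL-7, a ratio of 102 (95% counting interval 18.1 to 4050). Pdcd1 held 13.4, 12.9 and 12.2 CPM in the same libraries, from 101 counts against 1, a ratio of 54.3 (9.52 to 2160). In WT CD4+ cells Pdcd1 was already detected with IL-7, at 4.17, 6.46 and 1.54 CPM, and rose to 13.0, 12.0 and 18.4 CPM. Its CD4+ log2 change was 1.92 ± 0.42 (adjusted p = 0.000113) without overlap. Tigit gave 3.48, 0 and 0 CPM with IL-7 and 10.4, 21.4 and 9.08 CPM after stimulation of WT CD4+ cells, a log2 change of 3.64 ± 0.61 (adjusted p = 3.94e-06). The size of that change rests on IL-7 library 1: without it the group is at 0 and the fitted change was 7.76, which depends on the prior count.

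Ctla4, Cd5 and Btla were present in every library. Ctla4 in WT CD4+ cells gave 11.8, 23.9 and 14.9 CPM with IL-7 and 78.5, 83.8 and 56.7 CPM after stimulation, a log2 change of 2.10 ± 0.31 (adjusted p = 4.73e-06). In WT CD8+ cells it gave 4.97, 15.6 and 4.88 CPM with IL-7 and 93.02, 127.9 and 89.7 CPM after stimulation, a log2 change of 3.66 ± 0.36 (adjusted p = 9.64e-09). Neither pair of groups overlapped. Cd5, which encodes an inhibitor of antigen receptor signalling set during thymic selection, changed by 1.48 ± 0.16 in WT CD4+ cells (adjusted p = 6.94e-11) and 1.22 ± 0.16 in WT CD8+ cells (adjusted p = 3.11e-08). Btla, the receptor of HVEM, rose by 1.46 ± 0.28 in WT CD4+ cells (adjusted p = 0.000104).

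Btla and Cd160 gave the weakest calls of the family. Btla in WT CD8+ cells had overlapping groups, with 12.1, 11.5 and 29.3 CPM with IL-7 against 32.3, 23.0 and 37.1 CPM after stimulation, and a log2 change of 0.78 ± 0.34 (adjusted p = 0.0487). That call held under 8 of 15 alternative settings and was lost with the protein-coding share as a covariate (0.24, adjusted p = 0.635), with protein-coding genes only, with the library code as a block, and without WT CD8+ IL-7 library 1 or 2 or WT CD8+ stimulated library 1 or 3 (log2 changes of 0.56 to 0.76). Cd160, a second receptor of HVEM, held 4.26, 3.29 and 2.44 CPM with IL-7 in WT CD8+ cells and 8.28, 8.57 and 6.51 CPM after stimulation, a log2 change of 1.21 ± 0.49 (adjusted p = 0.0303). The Cd160 call held under 10 of 15 settings in WT CD8+ cells and under 10 of 15 in Raptor KO CD8+ cells, with lost calls without WT CD8+ IL-7 library 2 or 3, WT CD8+ stimulated library 1 or 2, Raptor KO CD8+ IL-7 library 1 or 2, and Raptor KO CD8+ stimulated library 2 or 3 (log2 changes of 0.95 to 1.21). With the protein-coding share as a covariate the Cd160 change was 0.82 (adjusted p = 0.352) in WT CD8+ cells and 0.94 (adjusted p = 0.167) in Raptor KO CD8+ cells. In WT CD4+ cells Cd160 had a log2 difference of -0.85 ± 0.58 (adjusted p = 0.198).

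In Raptor KO cells the members that were low with IL-7 also rose, except Cd160 in the CD4+ subset. The log2 change of Lag3 was 5.02 ± 0.42 for the CD4+ and 6.24 ± 0.46 for the CD8+ subset, and that of Cd200 was 3.42 ± 0.32 and 6.20 ± 0.45. In CD4+ cells the Lag3 change was called under all 15 alternative settings but ran from 4.56 to 7.39. Library 2 held 9 of the 10 Lag3 counts of the Raptor KO CD4+ IL-7 group. Pdcd1 and Tigit in Raptor KO CD8+ cells went from 3 to 108 counts, a ratio of 27.0 (95% counting interval 8.99 to 133), and from 1 to 108 counts, a ratio of 80.9 (14.2 to 3230). Ctla4 changed by 3.45 ± 0.53 in Raptor KO CD8+ cells (adjusted p = 1.06e-05) but by 1.13 ± 0.36 in Raptor KO CD4+ cells (adjusted p = 0.012). The CD4+ call was lost without Raptor KO CD4+ IL-7 library 1 (0.88, adjusted p = 0.0636). Library 2 of the Raptor KO CD4+ IL-7 group had the highest level of its group for Lag3 (4.81 CPM), Tigit (3.74 CPM), Pdcd1 (4.28 CPM) and Cd160 (4.81 CPM). Without it Cd160 was called in Raptor KO CD4+ cells (2.53, adjusted p = 0.00965).

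**Figure D2:**
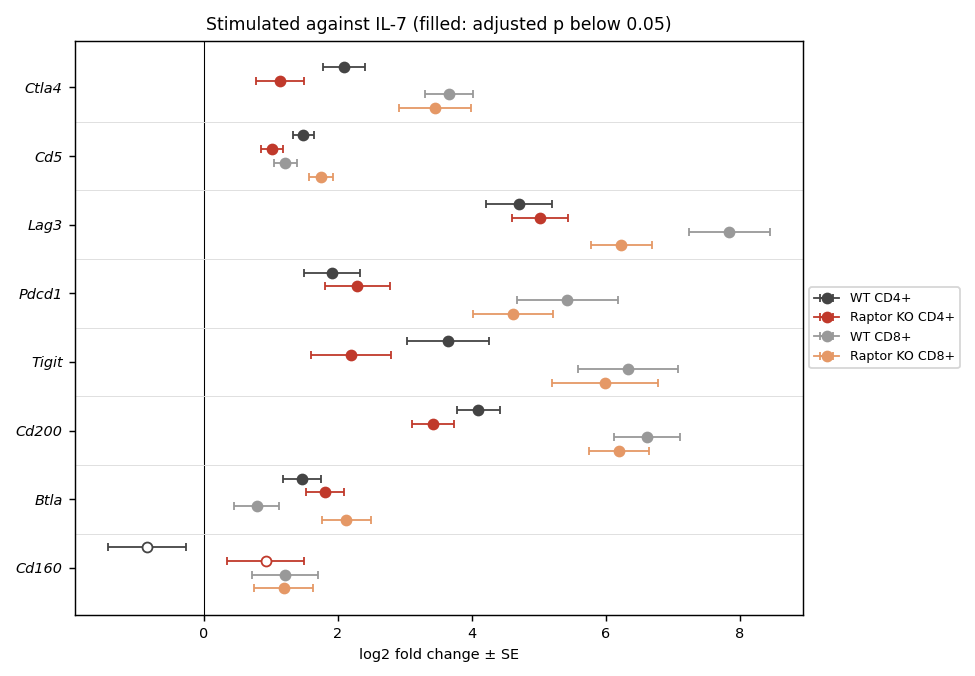
Log2 fold change (x axis) with SE of stimulated against IL-7 libraries for the 8 tested members (rows) in WT and Raptor KO CD4+ and CD8+ cells, 3 libraries per group. Filled points passed the test. Lag3, Cd200, Tigit and Pdcd1 lie farthest right, where IL-7 levels were near 0 in CD8+ cells and the fitted change depends on the prior count.

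The stimulation effect was set against genotype and subset by interaction terms. None of the 8 members passed for Raptor KO against WT in CD4+ cells, against 5.82% of all genes, in CD8+ cells, against 2.89%, or for CD8+ against CD4+ cells of WT, against 1.44%. At an unadjusted p under 0.05 edgeR's test had 2, 2 and 5 of the 8 members, against 21.1%, 15.7% and 11.8% of all genes. At an adjusted p under 0.05 DESeq2, like edgeR, called 0 in each. The 5 of the subset comparison were Ctla4 (1.57 ± 0.51, adjusted p = 0.16), Pdcd1 (3.51 ± 1.08, 0.0955), Cd160 (2.06 ± 0.76, 0.207), Lag3 (3.14 ± 1.48, 0.398) and Cd200 (2.52 ± 0.86, 0.178), all with the larger change in CD8+ cells. Their IL-7 levels in CD8+ cells were 0 to 15.6 CPM. Of these members, Pdcd1, Lag3 and Cd160 passed the filter for low counts only with the stimulated libraries, so their part of this count is no support. The Raptor interaction of Ctla4 in CD4+ cells was -0.97 ± 0.49 (95% interval -1.99 to 0.06, adjusted p = 0.268), so a smaller response in the knockout was not shown to pass the threshold. For the low members the intervals were wide, such as -4.73 to 1.51 for Lag3 in CD8+ cells and -3.51 to 0.62 for Tigit in CD4+ cells.

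Other settings did call some members. For the subset interaction the library code as a block called Ctla4 (1.57, adjusted p = 0.028) and Cd200 (2.54, 0.0293), the protein-coding share as a covariate called Ctla4 (1.78, 0.0335), and no filter for low counts called Ctla4 (1.55, 0.000754), Pdcd1 (3.47, 0.0483) and Cd200 (2.48, 0.0428). With 1 library left out it passed for Pdcd1 without WT CD4+ IL-7 library 3 (3.96, adjusted p = 0.045), Cd200 without WT CD4+ stimulated library 3 (2.87, 0.0195) and Ctla4 without WT CD8+ IL-7 library 2 (2.27, 0.0222). For the Raptor interactions no filter called Ctla4 in CD4+ cells (-1.05, adjusted p = 0.0399) and Btla in CD8+ cells (1.27, 0.0383). In CD4+ cells Tigit passed without WT IL-7 library 1 (-5.56, adjusted p = 0.044), with 0 counts left in that group, and Cd160 without Raptor KO IL-7 library 2 (3.38, 0.037).

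Loss of Raptor in stimulated CD4+ cells went with lower Ctla4 and Cd5 and higher Lag3. Of the 8 members, 2 were lower, against 8.56% of all genes, and 1 was higher, against 8.82%. In stimulated CD8+ cells Ctla4 alone was lower, 1 of 8 members against 5.42% of all genes, and no member was higher. The comparisons of each subset use different WT libraries.

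Ctla4 in stimulated CD4+ cells gave 78.5, 83.8 and 56.7 CPM in WT and 33.6, 31.0 and 27.9 CPM in Raptor KO libraries. The groups did not overlap, and the knockout was 2.35-fold lower (log2 change -1.23 ± 0.28, adjusted p = 0.00429). In stimulated CD8+ cells it gave 93.02, 127.9 and 89.7 CPM in WT and 28.5, 35.6 and 17.3 CPM in Raptor KO libraries. This was a 3.88-fold lower level (log2 change -1.96 ± 0.28, adjusted p = 6.29e-05), also without overlap. Within the library codes StP212, StP213 and StP219 the log2 ratios were -1.2, -1.4 and -1 in CD4+ cells and -1.67, -1.82 and -2.31 in CD8+ cells. Both calls held under all 15 alternative settings, with values of -1.70 to -1.11 and -2.44 to -1.66.

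Protein-coding shares moved with these groups. They were 38.9% to 63.6% in WT and 33.4% to 46.5% in Raptor KO stimulated CD4+ libraries, and 49.9% to 62.5% and 31.8% to 47.8% in the CD8+ libraries. With that share as a covariate, the Ctla4 change was -1.52 in CD4+ and -2.22 in CD8+ cells (adjusted p = 0.000257 and 7.27e-07). The 8 markers of myeloid cells summed to 22.7 to 29.0 CPM in WT and 45 to 53.8 CPM in Raptor KO stimulated CD4+ libraries, with Itgam and Adgre1 at 0 in both. In the CD8+ libraries the sums were 46.5 to 60.0 and 63.3 to 71.4 CPM, with Itgam at 0 in both. Of the 3 tested myeloid markers, 1 was higher in stimulated Raptor KO CD4+ cells and none lower, against 8.82% and 8.56% of all genes. In stimulated CD8+ cells none of the 3 was called. The part of these markers in the results was not tested.

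Regulatory T cells hold much CTLA-4, so their markers are given beside Ctla4. All 8 had counts in the stimulated groups, and their sum was 594 to 1000 CPM in WT and 821 to 879 CPM in Raptor KO stimulated CD4+ libraries, and 549 to 716 and 710 to 887 CPM in the CD8+ libraries. Il2ra, the most abundant of them after stimulation, also rises with activation (log2 change 5.76 ± 0.36 in WT CD4+ cells, adjusted p = 1.79e-11). Foxp3, which defines the lineage, held 6.70 ± 1.47 CPM in WT and 9.18 ± 5.52 CPM (SD, n = 3) in Raptor KO stimulated CD4+ cells (log2 difference 0.39 ± 0.44, adjusted p = 0.575). In Raptor KO stimulated CD4+ cells 3 of the 8 markers were higher and none lower, against 8.82% and 8.56% of all genes: Lrrc32 (1.74 ± 0.39, adjusted p = 0.00177), Ikzf2 (1.29 ± 0.25, adjusted p = 0.000636) and Capg (0.79 ± 0.23, adjusted p = 0.0157). In CD8+ cells 2 of 8 were higher and none lower, against 6.30% and 5.42%: Ikzf2 (2.09 ± 0.24, adjusted p = 7e-07) and Capg (1.11 ± 0.22, adjusted p = 0.000416). Capg in CD4+ cells was named after its values were seen. The part of these markers in the Ctla4 results was not tested.

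Cd5 in stimulated CD4+ cells gave 247.8, 213.4 and 188.5 CPM in WT and 92.9, 103.4 and 120.0 CPM in Raptor KO libraries. The groups were well apart, with a 2.05-fold lower level in the knockout (log2 change -1.03 ± 0.15, adjusted p = 4.99e-06), a call that held under all 15 settings. In stimulated CD8+ cells it gave 94.99, 102.8 and 128.7 CPM in WT and 79.5, 87.3 and 90.6 CPM in Raptor KO libraries. These groups did not overlap either, but the difference of -0.34 ± 0.16 (95% interval -0.66 to -0.03) did not pass (adjusted p = 0.152).

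Lag3 moved the other way in stimulated CD4+ cells, with 26.0, 42.3 and 31.1 CPM in WT and 80.9, 61.4 and 70.4 CPM in Raptor KO libraries. The groups did not overlap, and the knockout was 2.13-fold higher (log2 change 1.09 ± 0.25, adjusted p = 0.00302). With Rn45s kept in the library totals, a setting that also left out TMM scaling, the Lag3 change was 0.58 and the call was lost (adjusted p = 0.323). That scaling moved the median of all genes by -0.50. It left 67 of 684 called genes higher (9.80%), where TMM scaling without Rn45s had 925 of 1823 (50.7%). In stimulated CD8+ cells Lag3 gave 52.8, 80.3 and 73.0 CPM in WT and 89.6, 89.9 and 100.4 CPM in Raptor KO libraries, a log2 difference of 0.45 ± 0.23 that did not pass (adjusted p = 0.216) and was -0.06 with Rn45s in the totals.

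The remaining members did not pass in either stimulated subset. Their log2 differences in CD4+ cells were -0.22 ± 0.33 for Pdcd1, -0.57 ± 0.39 for Tigit, 0.28 ± 0.25 for Btla, -0.30 ± 0.22 for Cd200 and 1.22 ± 0.55 for Cd160. In CD8+ cells they were 0.55 ± 0.32 for Pdcd1, -0.34 ± 0.33 for Tigit, 0.55 ± 0.29 for Btla, 0.28 ± 0.22 for Cd200 and 0.65 ± 0.38 for Cd160. The 95% intervals in CD8+ cells ran from -0.09 to 1.19 for Pdcd1 and from -1 to 0.33 for Tigit. With the protein-coding share as a covariate, Cd200 passed in CD8+ cells (0.60, adjusted p = 0.0475).

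**Figure D3:**
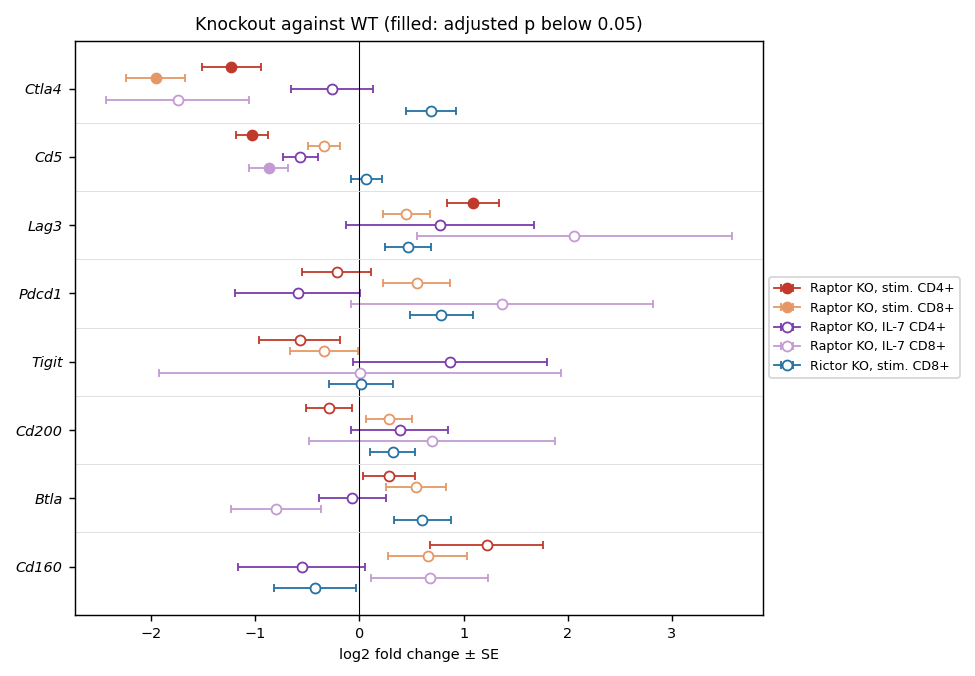
Log2 fold change (x axis) with SE of knockout against WT for the 8 tested members (rows), for Raptor KO in 4 settings and Rictor KO in stimulated CD8+ cells, 3 libraries per group. Filled points passed the test. Ctla4 lies at -1.23 and -1.96 in stimulated Raptor KO cells and at 0.69, not called, in Rictor KO cells.

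With IL-7, Cd5 in CD8+ cells was the 1 call between the genotypes. None of the 8 members passed in CD4+ cells, where 0.143% of all genes did, and 1 member had an unadjusted p under 0.05, as did 7.78% of all genes. That was Cd5, with 67.5, 89.1 and 75.5 CPM in WT and 42.7, 59.4 and 54.0 CPM in Raptor KO libraries, which did not overlap (log2 difference -0.57 ± 0.17, adjusted p = 0.219). At an adjusted p under 0.05 DESeq2, like edgeR, called 0 members in the same comparison. In CD8+ cells 1 member, Cd5, was lower, against 0.619% of all genes. It gave 56.0, 42.7 and 42.1 CPM in WT and 23.2, 25.0 and 29.4 CPM in Raptor KO libraries, without overlap (log2 change -0.87 ± 0.19, adjusted p = 0.00761).

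The Cd5 call in IL-7 CD8+ cells held under 11 of 15 settings. It was lost without WT CD8+ library 1 (-0.72, adjusted p = 0.109), Raptor KO CD8+ library 1 (-0.79, adjusted p = 0.0632) or Raptor KO CD8+ library 2 (-0.85, adjusted p = 0.0522), and with Rn45s in the totals (-0.92, adjusted p = 1). Ctla4 in the same cells gave 4.97, 15.6 and 4.88 CPM in WT and 2.44, 1.35 and 3.57 CPM in Raptor KO libraries. These did not overlap, but the log2 difference of -1.74 ± 0.68 did not pass (95% interval -3.17 to -0.32, adjusted p = 0.358), while it passed with no filter for low counts (-1.77, adjusted p = 0.0349). It rested on 10 counts in the knockout group. For members with few counts the intervals in IL-7 CD8+ cells were wide, from -1.05 to 5.18 for Lag3 and from -1.56 to 4.3 for Pdcd1.

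Loss of Rictor left no called member in stimulated CD8+ cells, where 0.162% of all genes passed in edgeR's test. At an unadjusted p under 0.05 there were 4 of 8 members, against 6.03% of all genes, all with the higher mean in the knockout: Ctla4, Pdcd1, Lag3 and Btla. At an adjusted p under 0.05 DESeq2, like edgeR, called 0 members. Ctla4 gave 146.9, 145.2 and 208.5 CPM in Rictor KO against 93.02, 127.9 and 89.7 CPM in WT libraries. The groups did not overlap, with a log2 difference of 0.69 ± 0.24 (95% interval 0.19 to 1.19, adjusted p = 0.474). It passed with no filter for low counts (0.72, adjusted p = 0.00646) and with the library code as a block (0.93, adjusted p = 0.0355), and in no other of the 15 settings.

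The 3 Rictor KO libraries all carry the code StP219, which 1 WT library has. Against that library alone the log2 ratio of Ctla4 was 0.89, with no test. Pdcd1 gave 25.7, 15.4 and 26.0 CPM in Rictor KO against 13.4, 12.9 and 12.2 CPM in WT libraries, without overlap (0.79 ± 0.30, adjusted p = 0.516). Btla did not overlap either, at 53.3, 49.1 and 40.0 CPM against 32.3, 23.0 and 37.1 CPM (0.60 ± 0.27, adjusted p = 0.783). Lag3 had a difference of 0.46 ± 0.22 (adjusted p = 0.824) with overlapping groups. Regulatory T cell markers summed to 453 to 517 CPM in Rictor KO and 549 to 716 CPM in WT libraries.

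Rictor KO and Raptor KO were then compared directly in stimulated CD8+ cells. Ctla4 was higher in Rictor KO, 1 of 8 members against 7.00% of all genes, and no member was lower. The level was 6.26-fold higher (log2 change 2.65 ± 0.28, adjusted p = 8.75e-07), with no overlap, and the call held under all 15 settings (2.35 to 3.04). Protein-coding shares were 44.8% to 60.4% in Rictor KO and 31.8% to 47.8% in Raptor KO libraries, and with that share as a covariate the Ctla4 change was 2.90 (adjusted p = 4.31e-09). Against the 1 Raptor KO library of code StP219 the log2 ratio was 3.2. Cd160 was at 4.44, 7.17 and 5.30 CPM in Rictor KO and 9.21, 13.1 and 13.3 CPM in Raptor KO libraries, a difference of -1.08 ± 0.39 (adjusted p = 0.0507) next to the threshold. It passed as lower under 3 of 15 settings: the library code as a block (-1.14, adjusted p = 0.0438), protein-coding genes only (-1.07, 0.0358) and the compared groups alone (-1.05, 0.0213). Cd5 (0.409 ± 0.155, adjusted p = 0.0659) passed as higher under 5 of 15 settings. Lag3 (0.01 ± 0.22, 95% interval -0.44 to 0.47) and Cd200 (0.04 ± 0.22, -0.42 to 0.49) did not pass.

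The WT subsets differed in which receptors they held. With IL-7, 3 of 8 members were lower in CD8+ than in CD4+ cells, against 1.73% of all genes, and none was higher. These were Pdcd1 (1 count against 19, ratio 0.0609 with a 95% counting interval of 0.00146 to 0.383), Cd200 (3 against 30, ratio 0.116, 0.0226 to 0.372) and Cd5 (log2 change -0.72 ± 0.17, adjusted p = 0.00673). Pdcd1 and Cd200 held under 9 and Cd5 under 11 of 15 settings. All 3 calls were lost without WT CD4+ IL-7 library 2, with Pdcd1 at -3.21 (adjusted p = 0.161), Cd200 at -2.88 (0.104) and Cd5 at -0.61 (0.069). Without WT CD8+ IL-7 library 3 all 3 were lost too (-3.16, -2.35 and -0.64, adjusted p = 0.154, 0.192 and 0.0635), and Btla passed (-1.51, adjusted p = 0.0192). Without WT CD8+ IL-7 library 1 the calls of Pdcd1 (-3.26, adjusted p = 0.12) and Cd200 (-3.89, 0.0516) were lost. Without library 2 those of Cd200 (-3.09, adjusted p = 0.0996) and Cd5 (-0.66, 0.0528) were lost, and Ctla4 passed (-1.76, adjusted p = 0.0424). Pdcd1 was lost without WT CD4+ IL-7 library 1 (-3.69, adjusted p = 0.0563) and Cd200 without library 3 (-2.82, 0.135). The 8 regulatory T cell markers summed to 86.5 to 111 CPM in the CD4+ and 26.2 to 44.5 CPM in the CD8+ WT IL-7 libraries. Of these markers 6 were lower in CD8+ cells, against 1.73% of all genes, and none was higher. Foxp3 was at 11.7 ± 4.08 CPM in the CD4+ and 3.29 ± 2.45 CPM (SD, n = 3) in the CD8+ IL-7 libraries. The part of these markers in the subset results was not tested.

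After stimulation 2 of 8 members were higher in WT CD8+ than in WT CD4+ cells, against 3.08% of all genes, and 2 were lower, against 2.11%. Cd160 gave 8.28, 8.57 and 6.51 CPM in CD8+ and 1.95, 1.34 and 2.20 CPM in CD4+ libraries, and was 4.00-fold higher (log2 change 2.00 ± 0.48, adjusted p = 0.00608). Lag3 was 2.05-fold higher (1.04 ± 0.24, adjusted p = 0.0083). Neither pair of groups overlapped, but the Lag3 call was lost without WT CD4+ stimulated library 1 (0.90, adjusted p = 0.0527) or library 3 (0.97, adjusted p = 0.0546) and with Rn45s in the totals (1.10, adjusted p = 0.175). Tigit passed without WT CD4+ stimulated library 2 (1.31, adjusted p = 0.0282).

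Btla and Cd5 favoured CD4+ cells. Btla gave 97.96, 71.3 and 108.4 CPM in stimulated CD4+ and 32.3, 23.0 and 37.1 CPM in stimulated CD8+ libraries, a 2.95-fold lower level in CD8+ cells (log2 change -1.56 ± 0.27, adjusted p = 0.000589). Cd5 was 1.98-fold lower in CD8+ cells (-0.98 ± 0.15, adjusted p = 1.2e-05), without overlap. The Cd5 call was lost with Rn45s in the totals (-0.83, adjusted p = 0.568). The 8 markers of NK and gamma-delta T cells, which also use Cd160 and Cd244, summed to 7.13 to 11.3 CPM in the stimulated CD4+ and 21.5 to 34.3 CPM in the stimulated CD8+ WT libraries, with Ncr1 at 0 in both. Of the 4 tested markers, 2 were higher in CD8+ cells and none lower, against 3.08% and 2.11% of all genes. The part of these NK and gamma-delta markers in the Cd160 result was not tested.

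Each gene had an order of groups of its own. Ctla4 ranked from Rictor KO CD8+ (166.8 ± 36.1 CPM, SD, n = 3) through WT CD8+ (103.5 ± 21.2) and WT CD4+ (73.0 ± 14.4) to Raptor KO CD4+ (30.8 ± 2.88) and Raptor KO CD8+ (27.1 ± 9.23), all stimulated. The first 3 of these were each apart from the next, and the last 2 overlapped. The step between Rictor KO and WT CD8+ cells did not pass edgeR's test (adjusted p = 0.474). Nor did that between WT CD8+ and WT CD4+ cells (CD8+ minus CD4+ 0.51 ± 0.25, adjusted p = 0.336). Cd5 was highest in stimulated WT CD4+ cells (216.6 ± 29.8 CPM), apart from stimulated Rictor KO CD8+ (114.1 ± 21.8), WT CD8+ (108.8 ± 17.6) and Raptor KO CD4+ (105.4 ± 13.7) cells, which overlapped in turn. Cd200 in the 5 stimulated groups ran from 74.9 ± 14.2 to 103.1 ± 36.9 CPM, and each group overlapped with the next.

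Levels of different genes were compared per kb of exon. In WT IL-7 cells Cd5 led, at 15.7 CPM per kb in CD4+ and 9.53 in CD8+ cells, followed by Btla (9.88 and 5.19) and Ctla4 (7.24 and 3.64). In stimulated WT CD4+ cells Cd5 was still first (44.0 CPM per kb), then Ctla4 (31.3) and Cd200 (31.1). In stimulated WT CD8+ cells Ctla4 led (44.4 CPM per kb) before Lag3 (32.6) and Tigit (26.0). In stimulated Raptor KO cells Lag3 was first in both subsets (33.6 CPM per kb in CD4+ and 44.2 in CD8+), and Ctla4 was at 13.2 and 11.6. Ctla4 led again in stimulated Rictor KO CD8+ cells, at 71.6 CPM per kb. These orders are descriptions of group means, without a test between genes.

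**Figure D4:**
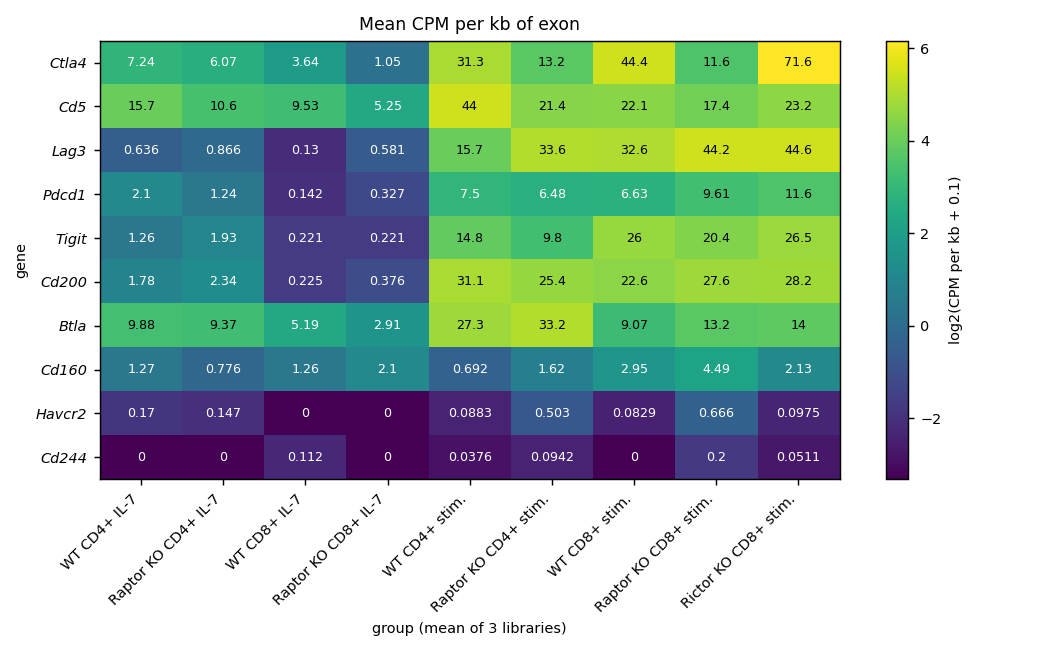
Mean CPM per kb of exon (numbers in cells, n = 3 libraries) of the 10 members (rows) in the 9 groups (columns), with colour on a log2 scale after adding 0.1. Lag3 has the highest value in both stimulated Raptor KO groups (33.6 and 44.2), while Havcr2 and Cd244 stay under 0.7 in all groups.

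Havcr2, which encodes TIM-3, and Cd244, which encodes the SLAM-family receptor 2B4, were near the limit of detection. Havcr2 had 0 to 9 counts per group, and the most were in stimulated Raptor KO CD8+ cells (4, 1 and 4 counts), against 1, 0 and 1 counts in stimulated WT CD8+ cells, a ratio of 6.32 with a 95% counting interval of 1.31 to 60.1. The IL-7 Raptor KO CD8+ libraries had 0 Havcr2 counts. With a floor of 3 counts for those libraries together, the ratio of stimulated to IL-7 cells was 2.25, without the error of the stimulated counts. Cd244 had 0 to 5 counts per group, again with the most in stimulated Raptor KO CD8+ cells (1, 4 and 0). Against the same floor for the 0 counts of stimulated WT CD8+ cells, the ratio was 2.34, again without the error of the knockout counts. With no filter for low counts, edgeR's test called neither gene for Raptor KO against WT in stimulated CD8+ cells (adjusted p = 0.342 for Havcr2 and 0.201 for Cd244). For stimulation of Raptor KO CD8+ cells it called Havcr2 (0.0372) and not Cd244 (0.161). A group's 0 counts allow up to 0.333 to 0.707 CPM, depending on the group, for counting error only. Differences at such counts were not detectable at this depth beyond these intervals.

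Other genes of the pathway were taken from 4 lists: 12 ligands and counter-receptors (7 tested), 5 activating receptors (5 tested), 10 signalling partners (10 tested) and 14 transcription factors (13 tested). With stimulation of WT CD4+ cells 2 of 7 ligands rose, against 32.4% of all genes, and none fell. In WT CD8+ cells 5 rose, against 32.0%, and 1 fell, Tnfrsf14 (-1.06 ± 0.25, adjusted p = 0.000409), which encodes HVEM and is named after its values were seen. Cd274, which encodes PD-L1, rose by 2.22 ± 0.23 in WT CD4+ cells (adjusted p = 3.45e-11). Pdcd1lg2, which encodes PD-L2, was at 0.215 ± 0.373 CPM with IL-7 and 12.3 ± 4.09 CPM (SD, n = 3) after stimulation of WT CD4+ cells, and at 0 and 7.89 ± 1.5 CPM in WT CD8+ cells. Cd80, a ligand of CTLA-4 and CD28, was at 0 CPM with IL-7 and 13.7 ± 4.18 CPM after stimulation in WT CD8+ cells. Pdcd1lg2 and Cd80 were at 0 or near it in these IL-7 groups and passed the filter for low counts through other groups. Their part of the counts of risen ligands is thus a description and no support.

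Ligands changed in part with Raptor. In stimulated CD4+ cells 2 of 7 were higher and none lower, against 8.82% and 8.56% of all genes, with Pvr at 1.00 ± 0.20 (adjusted p = 0.000349) and Cd274 at 0.50 ± 0.18 (adjusted p = 0.0439). The Cd274 call held under 5 of 15 settings and was lost without WT CD4+ library 2 or 3 or Raptor KO CD4+ library 2 or 3 (0.30 to 0.56). In stimulated CD8+ cells 1 was higher and 2 were lower, against 6.30% and 5.42% of all genes, with Cd274 at 1.21 ± 0.19 (adjusted p = 8.05e-06) and Cd80 at -1.60 ± 0.52 (adjusted p = 0.0375). The Cd80 call held under 9 of 15 settings. It was lost without WT CD8+ library 1 or 2 or Raptor KO CD8+ library 1 or 3 (-1.57 to -0.97). DESeq2 (-1.64, adjusted p = 0.0897) and edgeR on the compared groups alone (-1.63, 0.115) lost it too. The second lower one, named after its values were seen, was Lgals9, a ligand of TIM-3 (-0.94 ± 0.19, adjusted p = 0.000583). Cd274 was lower and Lgals9 was higher in Rictor KO than in Raptor KO CD8+ cells (-1.34 ± 0.18 and 0.98 ± 0.19, adjusted p = 9.57e-07 and 0.000221). These were the only 2 of 7 called, where 871 of all 10493 genes were lower and 735 higher. With Rictor KO against WT no ligand passed.

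Of the 5 activating receptors, 1 was higher in stimulated Raptor KO CD4+ cells and 2 in CD8+ cells, against 8.82% and 6.30% of all genes, and none was lower. Cd96, which shares the ligand PVR with TIGIT, was higher in both (1.01 ± 0.27 and 0.99 ± 0.21, adjusted p = 0.0076 and 0.00129), and Crtam in CD8+ cells (1.08 ± 0.28, adjusted p = 0.01). The CD4+ call of Cd96 was lost without WT library 2 (0.76, adjusted p = 0.0688) or Raptor KO library 1 (0.86, adjusted p = 0.0621), and that of Crtam without WT library 2 (0.89, adjusted p = 0.0521) or Raptor KO library 3 (0.55, adjusted p = 0.286). Cd28, the rival of CTLA-4 for its ligands, was the 1 of 5 higher in Rictor KO CD8+ cells, where 0.162% of all genes were called (0.88 ± 0.19, adjusted p = 0.0449). That call held under 7 of 15 settings and was lost without any 1 of the 6 libraries compared (0.78 to 0.93 over all settings). Icos, a receptor of the CD28 family, rose with stimulation in all 4 settings, by 1.25 ± 0.25 in WT CD4+ and 2.16 ± 0.27 in WT CD8+ cells (adjusted p = 0.000146 and 2.57e-07).

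Of the 10 signalling partners, 3 were higher and none lower in stimulated Raptor KO CD4+ cells, against 8.82% and 8.56% of all genes, and 1 was higher in CD8+ cells, against 6.30%. Cblb, a ubiquitin ligase that limits T cell activation, was higher in both (0.90 ± 0.14 and 0.52 ± 0.14, adjusted p = 1.24e-05 and 0.0104). The CD8+ call was lost without WT library 3 (0.39, adjusted p = 0.113) or Raptor KO library 2 (0.46, adjusted p = 0.0549). Sh2d1a, the adaptor SAP, was higher in CD4+ cells (0.64 ± 0.22, adjusted p = 0.0391), a call lost without WT library 1 or 2 or Raptor KO library 2 or 3 (0.46 to 0.65). The third, named after its values were seen, was the kinase gene Fyn (0.44 ± 0.15, adjusted p = 0.0301). Ptpn6, which encodes the phosphatase SHP-1, was the 1 of 10 higher with IL-7 in each subset (1.18 ± 0.17 in CD4+ and 1.11 ± 0.18 in CD8+ cells, adjusted p = 0.000104 and 0.000113). Of all 10493 genes, 10 were higher in CD4+ cells, where 0.143% were called in either direction, and 53 were higher in CD8+ cells. With Rn45s in the totals the calls of Cblb, Sh2d1a and Ptpn6 were lost (Cblb 0.37 in CD4+ and 0.005 in CD8+ cells, Ptpn6 1.01 in CD4+ and 1.05 in CD8+ cells), as were those of Pvr, Cd274, Cd96 and Crtam in stimulated Raptor KO cells (0.005 to 0.69).

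Of the 13 tested transcription factors, 2 were higher and 1 lower in stimulated Raptor KO CD4+ cells, against 8.82% and 8.56% of all genes, and 2 were higher and 1 lower in CD8+ cells, against 6.30% and 5.42%. Tox (1.65 ± 0.30, adjusted p = 8.93e-05) and Nr4a3 (1.21 ± 0.36, adjusted p = 0.0248) were the higher ones in CD4+ cells, and Nr4a2 (1.58 ± 0.30, adjusted p = 0.000642) and Eomes (1.11 ± 0.31, adjusted p = 0.0129) in CD8+ cells. The call of Nr4a3 was lost without WT library 1 or 2 or Raptor KO library 1 (0.99 to 1.16), and that of Eomes without WT library 1 (0.99, adjusted p = 0.0767) or Raptor KO library 2 (0.72, adjusted p = 0.196). With Rn45s in the totals none of these 4 passed (0.58 to 1.11). The lower one in both subsets, named after its values were seen, was Tcf7, a factor of naive and memory cells (-0.80 ± 0.13 and -0.42 ± 0.14, adjusted p = 3.71e-05 and 0.0366). Tox and the Nr4a factors are known from exhausted T cells, and Eomes from effector and memory CD8+ cells. Nr4a2 and Eomes were lower in Rictor KO than in Raptor KO CD8+ cells (-1.58 ± 0.30 and -1.66 ± 0.32, adjusted p = 0.000427 and 0.000261). They were 2 of 3 lower beside 1 higher among the 13, where 871 of all 10493 genes were lower and 735 higher. The others, named after their values were seen, were Nr4a1 (-0.71 ± 0.19, adjusted p = 0.00771) and Tcf7 (0.77 ± 0.14, adjusted p = 6.66e-05). No transcription factor passed for Rictor KO against WT.

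The genes most like each member over the 27 libraries were searched among 6658 protein-coding genes by Pearson's r of log2 CPM, as a description in which all points share the same groups, depth and scaling. Ctla4 was nearest to Eno1 (0.932), Pfkl (0.931) and Slc16a3 (0.924), 2 glycolytic enzymes and a lactate transporter. Cd5 was nearest to Fdft1 (0.905), an enzyme of sterol synthesis, and to Cyb5b and Adarb1 (both 0.891). Cd200 was nearest to Ezh2 (0.978), Lig1 (0.973) and Il2ra (0.970), and Lag3 to Ccdc50 (0.981), Hist1h4a (0.980) and Serpinb6b (0.978). Tigit was nearest to Hist1h2bj (0.962), Pdcd1 to Fbxw11 (0.944) and Btla to Tiam1 (0.874). Cd160 had the lowest values, with Dennd4a at 0.797 and Cd226 at 0.760.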

How the data were processed

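Total RNA of 27 libraries in 9 groups of 3 was measured. The deposited values are raw read counts per gene in 1 table by the authors. Per the submitters' processing notes, STAR 2.6.0a and the build GRCm38 were used. Which program counted the reads, with which annotation and strand setting, is not given in the sources used here, so Cd160, which shares exon bases with Pdzk1 on the other strand, is uncertain. Of 26802 rows, 26765 matched GENCODE M21 by gene ID.

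Rn45s was removed before scaling. The tests used edgeR 4.0.16 in R 4.3.3, with TMM scaling, a filter by group (minimum count 10, total 15), 1 mean per group over all 27 libraries, robust quasi-likelihood tests, and Benjamini-Hochberg adjustment at 0.05 over 10493 genes. There were 12 comparisons between groups and 3 interactions. The fit was tested on simulated data. CPM are per 1000000 counts of the tested genes after TMM scaling, and floors and counting intervals cover counting error only.

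Members, lists and the naming rule were chosen with earlier results of these data known. The rule names all 10 members, the 2 called genes of each list with the largest change in a comparison described, and the 3 genes most like each member (mean of at least 10 CPM). Alternative settings were size factors by median ratio, a stricter filter (5 CPM in 3 libraries) or none, DESeq2 1.42.0, Rn45s kept in totals, protein-coding genes only, a fit of the compared groups alone, the library code as a block, and each library left out. The setting with Rn45s in the totals used no TMM scaling, so the effects of both changes cannot be told apart in it. The protein-coding share as a covariate was added after seeing the data. No pair of replicates was a copy.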

Additional observations from a re-analysis of the deposited data

Results flagged for a closer look

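No tested member of the receptor family passed an interaction test in the fit reported, while Ctla4, Cd200, Pdcd1, Btla, Tigit and Cd160 each did under at least 1 other setting. Among the named genes of the pathway lists, 13 differences between stimulation effects passed edgeR's interaction test (Benjamini-Hochberg adjusted). The rule names only genes that passed, so these 13 are a selection and no support. Of the 7 ligands, 5 activating receptors, 10 partners and 13 factors tested, 6, 4, 8 and 10 did not pass in CD4+ cells. For Raptor in CD8+ cells 6, 4, 8 and 11 did not, and for the subsets 6, 5, 10 and 13. Of all genes 5.82%, 2.89% and 1.44% passed in these 3 tests. Each value below is a difference of 2 log2 changes, Raptor KO minus WT or, for the subsets, CD8+ minus CD4+. A value above 0 can be a larger rise or a smaller fall. In CD4+ cells the difference was above 0 for Pvr (1.05, adjusted p = 0.0262), Cd96 (1.28, 0.022), Cblb (1.19, 0.000217) and Tox (1.61, 0.0124). It was below 0 for Ptpn6 (-0.90, 0.0121) and Irf4 (-3.91, 0.0363). Cd96 fell with stimulation of WT CD4+ cells, with log2 changes of -2.217 to -1.735 over 15 alternative settings, all called. In CD8+ cells the difference was above 0 for Cd96 (1.18, adjusted p = 0.0195), Cblb (0.91, 0.00602) and Eomes (2.97, 0.00143). It was below 0 for Lgals9 (-1.07, 0.0288), Ptpn6 (-1.07, 0.00436) and Tcf7 (-0.68, 0.0329). With IL-7 Eomes was called lower in Raptor KO than in WT CD8+ cells, as were 0.619% of all genes. That IL-7 difference is part of the 2.97. It was -2.144 to -1.661 over 15 alternative settings and called in 8. In WT cells the CD8+ minus CD4+ difference of Pvr was 1.29 (adjusted p = 0.0279).

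For Cblb and for Eomes in CD8+ cells, 20 of 21 alternative settings kept the call, as did 20 for Ptpn6 in CD8+ cells. The CD4+ calls of Ptpn6 and Tox held under 19 each, Cd96 under 16 in CD4+ and 14 in CD8+ cells, Pvr in CD4+ cells under 14 and Lgals9 under 12. The Irf4 and Tcf7 calls held under 10 of 21 settings each, and the Pvr call of the subsets under 11. With Rn45s kept in the library totals and no TMM scaling, 12 of the 13 calls were lost, all but that of Irf4. Irf4 with IL-7 was at 13.4 ± 17.2 CPM in Raptor KO and 0.745 ± 0.772 CPM in WT CD4+ cells (SD, n = 3). Without Raptor KO CD4+ IL-7 library 2 the Irf4 difference was -1.92 and did not pass edgeR's test (adjusted p = 0.182).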

How the results depend on the processing

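Over settings other than leaving out a library, 1045 of 1080 log2 changes of members kept their side of the threshold, 14 lost a call and 21 gained one. With 1 library left out, 824 of 864 did, 30 lost a call and 10 gained one. No called value changed sign, while 22 and 46 uncalled values did. Counts of called members changed by over 1.5 times as follows. Median-ratio size factors gave 2 for Rictor KO against Raptor KO. No filter gave 2 for Raptor KO CD8+ IL-7 cells, 1 for Rictor KO, 2 for Rictor KO against Raptor KO, 5 for CD8+ against CD4+ IL-7 cells, and 1, 1 and 3 for the interactions of Raptor in CD4+, of Raptor in CD8+ and of the subsets, and it called Havcr2 for stimulation of Raptor KO CD8+ cells (adjusted p = 0.0372). Rn45s in the totals gave 0 for Raptor KO CD8+ IL-7 cells and 2 for CD8+ against CD4+ stimulated cells. Protein-coding genes only, and the compared groups alone, gave 3 each for Rictor KO against Raptor KO. The added covariate gave 2 for Raptor KO stimulated CD8+ cells and 1 for the interaction of the subsets. Leaving out 1 library gave 0 to 2 for CD8+ against CD4+ IL-7 cells (3 with all), 0 to 1 for Raptor KO CD8+ IL-7 cells and for the interactions of Raptor in CD4+ cells and of the subsets, and 1 to 2 for Rictor KO against Raptor KO. Smaller changes were 2 (from 3) for Raptor KO stimulated CD4+ and 6 (7) for stimulation of Raptor KO CD4+ cells with Rn45s in the totals, 2 (3) for CD8+ against CD4+ IL-7 cells with Rn45s in the totals, DESeq2, protein-coding genes only or the compared groups alone, 7 (8) for stimulation of WT CD8+ cells with protein-coding genes only or the block, and 6 (8) and 7 (8) for that of WT and Raptor KO CD8+ cells with the covariate. The cause was not tested.

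Same-numbered libraries correlated at -0.178 to 0.367. The lowest value was for Rictor KO against WT, where the Rictor KO numbers do not follow the library code. In no comparison were all 3 above 0.1, and for CD8+ against CD4+ IL-7 cells they were 0.146, 0.098 and 0.283. The main fit left the libraries unpaired, which does not show that they were. Every library correlated best with its own number for stimulation of WT CD4+ cells and for CD8+ against CD4+ IL-7 cells, and for no other comparison. The replicate block by library code gave 1 called member for Rictor KO, 2 for Rictor KO against Raptor KO and 2 for the interaction of the subsets. With the block, genes called in all were 34 (without it 15) for Raptor KO in CD4+ and 197 (118) in CD8+ IL-7 cells, and 234 (151) for the interaction of the subsets.

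Rn45s in the totals lowered the counts of all called genes to 3261 (from 5453) for stimulation of Raptor KO CD4+ cells, 684 (1823) and 459 (1230) for Raptor KO in stimulated CD4+ and CD8+ cells, 23 (118) in CD8+ IL-7 cells, 5 (17) for Rictor KO, 516 (1606) for Rictor KO against Raptor KO, 186 (349) and 181 (544) for CD8+ against CD4+ cells with IL-7 and stimulated, and 24 (611), 38 (303) and 49 (151) for the interactions. The share of higher calls went from 49.9% to 62.2%, 51.0% to 80.4% and 53.1% to 69.8% for stimulation of WT CD4+, WT CD8+ and Raptor KO CD8+ cells, 53.7% to 12.0% for Raptor KO in stimulated CD8+ cells, and 45.8% to 77.7% for Rictor KO against Raptor KO (57.5% with median-ratio size factors). It went from 66.7% to 80.0% and 44.9% to 65.2% for Raptor KO in CD4+ and CD8+ IL-7 cells, 64.7% to 20.0% for Rictor KO, 47.9% to 24.2% for CD8+ against CD4+ IL-7 cells, and 61.4% to 20.8%, 58.7% to 13.2% and 69.5% to 98.0% for the interactions. The median of all genes moved by 0.77 at most, in WT CD8+ stimulation. This setting also left out TMM scaling, and the part of each change in these counts was not tested. Rictor KO had 61 called genes with no filter, 44 with the compared groups alone, 27 with the covariate and 1 to 26 without any 1 of the 6 libraries compared, and Raptor KO CD4+ IL-7 cells 29 with no filter. Without WT stimulated CD4+ library 3, Raptor KO gave 1134 called genes in stimulated CD4+ cells and 381 for the interaction, and without Raptor KO library 1 it gave 1178 and 397. It gave 751 in stimulated CD8+ cells without Raptor KO library 3, and 61 to 71 in IL-7 CD8+ cells without WT library 1 or 2 or Raptor KO library 2 or 3. Rictor KO against Raptor KO gave 1005 without Rictor KO library 2.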
